A study of Mus musculus with 20 samples.

Results

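Livers that lacked Cpt1a and Cpt1b and in addition Cpt2 (TKO) were compared with livers that lacked Cpt1a and Cpt1b alone (Cpt1DKO), all after a fast of 24 h. The comparison used 8 of the 20 libraries of the study, 4 TKO and 4 Cpt1DKO, chosen by the titles and genotypes in the labels. The TKO group was labelled a CPT1A/1B/2 liver-specific triple KO and the Cpt1DKO group a CPT1A;CPT1B liver-specific double KO, so loss of both Cpt1 genes was shared by all 8 libraries. Loss of Cpt2 with Cpt1a and Cpt1b present was read from 4 libraries of the CPT2 liver-specific KO (Cpt2KO) and 4 of the CPT1A/1B/2 triple floxed control (Control), which share no library with TKO or Cpt1DKO. What drove deletion, the strain and the age of the mice were not given in the labels. Whether the 4 libraries of each group came from separate animals is not said in the labels, so the p-values reflect only library-to-library spread, part of which may be technical.

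The carnitine shuttle carries long-chain fatty acids into mitochondria. CPT1 at the outer membrane joins them to carnitine, the carrier SLC25A20 moves the acylcarnitines inward, and CPT2 at the inner membrane returns them to acyl-CoA for oxidation. CPT1A is the main CPT1 of liver and CPT1B that of muscle. In the fasted liver this oxidation feeds ketone production, and PPARalpha, a nuclear receptor that binds fatty acids, raises many genes of fat handling.

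RNA sequencing of whole liver gave total counts of 15984190 to 20273303 in TKO and 14129595 to 18998588 in Cpt1DKO libraries. Pairs of libraries within TKO or within Cpt1DKO differed beyond sampling noise (chi-square per degree of freedom 16 to 74.8). Levels are given as counts scaled to library size with TMM factors (CPM), in the order of replicates 1 to 4. Hepatocyte markers dominated all 8 libraries, with summed levels of 42250 to 76120 CPM in TKO and 86500 to 96250 CPM in Cpt1DKO for a list of 10. Cpt2 stood at 115, 92.5, 94.00 and 112 CPM in the TKO livers, against 284, 147, 298 and 302 CPM in the Cpt1DKO livers (log2 fold change -1.32 ± 0.18 SE, adjusted p = 0.000354). The groups did not overlap, but Cpt1DKO replicate 2 lay well below the other Cpt1DKO libraries, and leading counts are also given without it. Its Cpt1a level (146 CPM) and Endod1 level (2.75 CPM) were near those of the other Cpt1DKO libraries (148 to 173 and 2.87 to 3.11 CPM). In TKO livers Endod1 stood at 20.9 to 30.8 CPM. Both values are of limited use here, since Cpt1a was targeted in both groups and Endod1 was named because these groups differed in it. Whether this Cpt1DKO library was mixed up or only partly deleted was not tested. TKO replicate 2 stood apart from the other TKO libraries in several genes named below and in the share of counts from Alb, at 3.77% against 2.11% to 2.80% in the other TKO libraries. Cpt1a stood at 118, 139.7, 145 and 145 CPM in the TKO livers, against 153, 146, 173 and 148 CPM in the Cpt1DKO livers, and the highest TKO library was just under the lowest Cpt1DKO library, a difference that was not called (log2 fold change -0.18 ± 0.18 SE, adjusted p = 0.641). In Control livers Cpt1a averaged 1038 ± 76.6 CPM (SD, n = 4). The deletions may leave part of each transcript, and counts over a whole gene do not read the removed exons alone.

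With the loss of Cpt2 added, 729 of 15669 genes tested differed, 407 higher and 322 lower in TKO than in Cpt1DKO (4.65%, 2.6% and 2.06% of the genes tested). The rises were led by Fabp3, which codes for the heart-type fatty acid binding protein, the stress gene Nupr1, the lysosomal membrane glycoprotein gene Gpnmb, the acute phase gene Orm2 and the carbonyl reductase gene Cbr3. The falls were led by Cyp7a1, the rate-limiting enzyme of the classic route of bile acid synthesis, Cyp2c38, Cyp17a1 and Akr1d1. Of the changed genes, 272 had a log2 fold change of at least 1 in size, 145 higher and 127 lower. Calls were made at an adjusted p under 0.05 in edgeR's quasi-likelihood test, and 3127 genes had an unadjusted p under 0.05. In 13.9% of the genes tested, the 4 TKO and 4 Cpt1DKO libraries did not overlap, with TKO higher in 7.56% and lower in 6.33%. Without Cpt1DKO replicate 2, 898 genes were called, 460 higher and 438 lower, of which 613 were among the 729. Without TKO replicate 2 it was 656, 330 higher and 326 lower, of which 527 were among the 729. The count was also lower by more than 1.5 times without TKO replicate 1 (278), TKO replicate 3 (465), TKO replicate 4 (438), Cpt1DKO replicate 1 (379), Cpt1DKO replicate 3 (329) or Cpt1DKO replicate 4 (288). The authors' deposited table of this comparison called 1655 genes at the same threshold, of which 711 were called here in the same direction and 0 in the opposite one.

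Some PPARalpha targets rose with the added loss of Cpt2, led by genes for fatty acid binding, fuel choice and lipid droplets. Of 46 PPARalpha targets tested, 9 were higher and 0 lower in TKO, beside 2.6% of all genes called higher, and the median log2 fold change of the list was 0.23 against 0.00 for all genes. Fabp3 (chr4:130202388-130209256, + strand, GRCm39) stood at 10.9, 1.35, 18.2 and 23.02 CPM in the TKO livers, against 0.132, 0.327, 0.0798 and 0.394 CPM in the Cpt1DKO livers (log2 fold change 5.74 ± 0.74 SE, adjusted p = 0.000343). Pdk4 (chr6:5483351-5496309, - strand), whose kinase shuts pyruvate dehydrogenase in fasting, stood at 268, 963, 584 and 433 CPM in the TKO livers, against 88.7, 119, 30.5 and 36.3 CPM in the Cpt1DKO livers (log2 fold change 3.04 ± 0.47 SE, adjusted p = 0.00186). Ucp3, which codes for a mitochondrial carrier of the uncoupling protein family, stood at 4.24, 4.04, 4.25 and 3.11 CPM in the TKO livers, against 0.397, 0.392, 1.04 and 0.620 CPM in the Cpt1DKO livers (log2 fold change 2.69 ± 0.46 SE, adjusted p = 0.00194). None of these genes had a Cpt1DKO library that reached a TKO library. In Fabp3, TKO replicate 2 was far below the other TKO libraries, and the Cpt1DKO libraries held 1 to 7 counts each. In Pdk4, the highest TKO library had several times the level of the lowest, and the Cpt1DKO libraries were also spread.

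Plin2, the main coat protein gene of liver lipid droplets, stood at 3617, 3318, 2621 and 2610.5 CPM in the TKO livers, against 1806, 1415, 1050.4 and 1427 CPM in the Cpt1DKO livers (log2 fold change 1.09 ± 0.22 SE, adjusted p = 0.00754), without overlap. Pex11a, which acts in peroxisome division, averaged 695 ± 31.8 CPM in TKO and 362 ± 31.4 CPM in Cpt1DKO (SD, n = 4 each; log2 fold change 0.94 ± 0.16 SE, adjusted p = 0.00211). Acot2 and Acot1, which code for mitochondrial and cytosolic acyl-CoA thioesterases and are close paralogs whose reads can be confused, had log2 fold changes of 1.44 and 0.72. Slc22a5, the plasma membrane carnitine transporter, was the only called member among 7 genes of the shuttle other than those targeted (log2 fold change 0.56 ± 0.15 SE, adjusted p = 0.0327), and its groups overlapped. Cpt1b was itself among the 9 although it was targeted in both groups, at 3.03, 2.76, 3.03 and 2.38 CPM in the TKO livers, against 0.993, 1.11, 0.798 and 0.620 CPM in the Cpt1DKO livers (log2 fold change 1.66 ± 0.36 SE, adjusted p = 0.0116). Among lipid droplet genes, 3 of 22 rose and 0 fell, beside 2.6% of all genes called higher. Plin3 (0.85 ± 0.16), another droplet coat protein, and Gpat3 (0.89 ± 0.23), an acyltransferase of triglyceride synthesis, rose beside Plin2. Cpt1b lost its call without Cpt1DKO replicate 4 (highest adjusted p 0.0551). Acot1 lost its call without TKO replicate 1, 2, 3 or 4 or Cpt1DKO replicate 2, 3 or 4 (highest adjusted p 0.13). Slc22a5 lost its call without TKO replicate 2, 3 or 4 or Cpt1DKO replicate 1, 2, 3 or 4 (highest adjusted p 0.0952). Gpat3 lost its call without TKO replicate 1, 2 or 4 or Cpt1DKO replicate 1, 2 or 4 (highest adjusted p 0.0976). The number of PPARalpha targets called higher became 5 without Cpt1DKO replicate 4. Without Cpt1DKO replicate 2, 2 PPARalpha targets were called lower.

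Genes of mitochondrial fatty acid breakdown did not pass the test. None of 21 genes of mitochondrial fatty acid oxidation was called, beside 4.65% of all genes tested, and their median log2 fold change was -0.07. Acadm, the medium-chain acyl-CoA dehydrogenase, had the lowest p of these genes at log2 fold change -0.44 ± 0.16 SE, adjusted p = 0.108. Of 7 genes of ketone production and export, 0 were called. Of 12 genes of microsomal omega oxidation, 0 were called, and Cyp4a14 had log2 fold change -0.21 ± 0.20 SE, adjusted p = 0.608, a family whose members can share reads. Beside a share of 4.65%, 0 calls in lists this short is not read as a result about them. In the peroxisomal list of 26 genes, Pex11a was the only member to rise, while Pecr (-1.09 ± 0.19), a reductase of fatty acid elongation, and Acox2 (-0.84 ± 0.15), an oxidase of branched-chain and bile acid intermediates, fell. Over all genes tested, 2.6% were called higher and 2.06% lower. Fgf21, the liver hormone of fasting, stood at 126, 26.8, 41.98 and 76.2 CPM in the TKO livers, against 37.5, 39.03, 12.9 and 29.1 CPM in the Cpt1DKO livers and did not pass the test (log2 fold change 1.19 ± 0.48 SE, adjusted p = 0.17). Cidec, a droplet fusion gene, had log2 fold change 0.63 ± 0.20 SE, adjusted p = 0.0704. Ppara averaged 322 ± 79.4 CPM in TKO and 238 ± 64.3 CPM in Cpt1DKO (log2 fold change 0.44 ± 0.24 SE, adjusted p = 0.322).

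**Figure D1:**
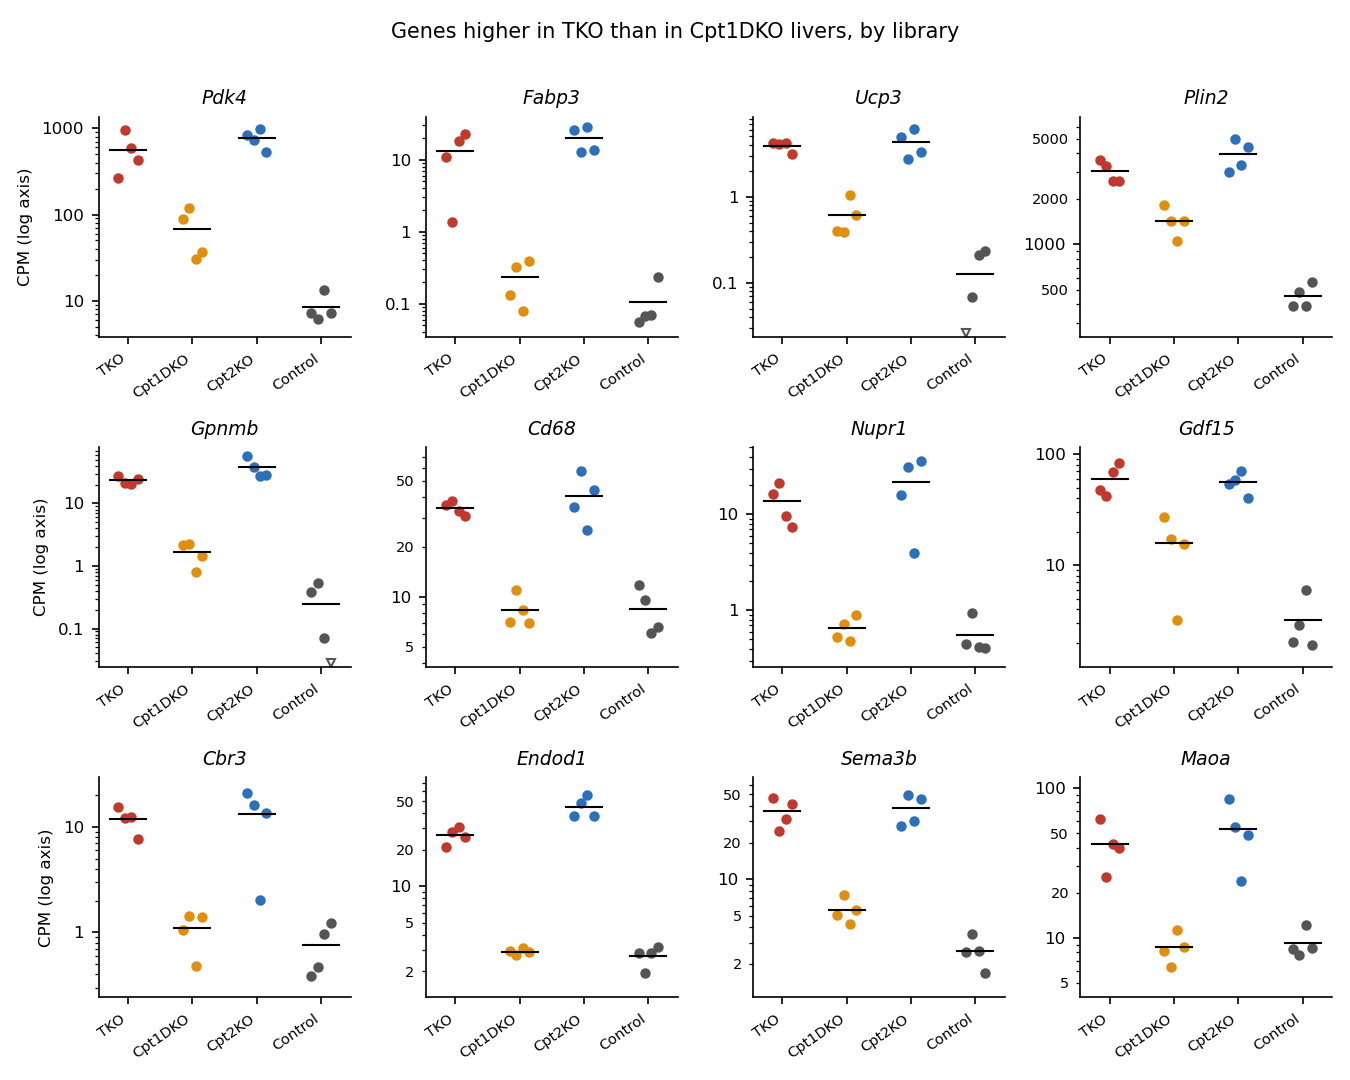
Levels of 12 genes called higher in TKO than in Cpt1DKO livers, in CPM on a log axis whose range differs between panels. Each point is 1 library, bars are means of 4 libraries, and open triangles at the foot mark libraries at 0. TKO points lie above all Cpt1DKO points in each panel, and Pdk4 runs at 562 CPM in TKO and 68.5 CPM in Cpt1DKO on average.

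Some genes of cell stress rose. Of 28 tested targets of ATF4, the transcription factor of the integrated stress response, 5 were higher and 2 lower in TKO, with a list median of 0.34. Of all genes tested, 2.6% were called higher and 2.06% lower. Nupr1 (chr7:126222421-126230033, - strand), a small chromatin-associated stress protein, stood at 16.2, 21.3, 9.61 and 7.46 CPM in the TKO livers, against 0.530, 0.719, 0.479 and 0.902 CPM in the Cpt1DKO livers (log2 fold change 4.32 ± 0.79 SE, adjusted p = 0.00622). Gdf15, a secreted hormone of cell stress, stood at 47.6, 41.7, 68.9 and 82.9 CPM in the TKO livers, against 27.02, 17.3, 3.19 and 15.6 CPM in the Cpt1DKO livers (log2 fold change 1.93 ± 0.44 SE, adjusted p = 0.0201). The groups did not overlap in either gene, but 1 Cpt1DKO library of Gdf15 was far below the other 3. Psat1 of serine synthesis, Mthfd2 of mitochondrial folate metabolism and Slc3a2, the heavy chain of amino acid exchangers, rose by 2.31, 1.91 and 1.08 on the log2 scale. Cth and Cbs, the enzymes that turn homocysteine into cysteine, fell by 2.01 ± 0.40 and 1.22 ± 0.20 SE on the log2 scale. The factor's own transcript, Atf4, had log2 fold change 0.26 ± 0.17 SE, adjusted p = 0.419, and Ddit3 (0.30 ± 0.28, adjusted p = 0.61), Trib3 (0.26 ± 0.37, adjusted p = 0.757) and Asns (1.43 ± 0.57, adjusted p = 0.169) were not called. Slc7a11, the cystine carrier, averaged 2.42 ± 1.83 CPM in TKO and 0.163 ± 0.327 CPM in Cpt1DKO and was not called (adjusted p = 0.131), with 3 of the 4 Cpt1DKO libraries at 0. Gdf15 lost its call without TKO replicate 4 or Cpt1DKO replicate 4, and also in a fit of these 8 libraries alone (highest adjusted p 0.0798). Psat1 lost its call without TKO replicate 1, 3 or 4 or Cpt1DKO replicate 1, 2, 3 or 4, and also with no filter on low counts (highest adjusted p 0.133). The count called higher became 1 without Cpt1DKO replicate 4, 2 without TKO replicate 1 or 4 or Cpt1DKO replicate 3 and 3 without Cpt1DKO replicate 1.

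Among targets of NRF2, the factor that answers oxidants and electrophiles, 5 of 26 rose and 0 fell, beside 2.6% of all genes called higher. The list median was 0.51. Cbr3 stood at 15.3, 12.1, 12.3 and 7.73 CPM in the TKO livers, against 1.06, 1.44, 0.479 and 1.41 CPM in the Cpt1DKO livers (log2 fold change 3.40 ± 0.59 SE, adjusted p = 0.00347). Gclc, the catalytic subunit of the rate-limiting enzyme of glutathione synthesis, averaged 541 ± 160.5 CPM in TKO and 208 ± 11.6 CPM in Cpt1DKO (log2 fold change 1.38 ± 0.30 SE, adjusted p = 0.012). Ugdh, which makes UDP-glucuronic acid for conjugation, averaged 518 ± 176 CPM in TKO and 179 ± 26.8 CPM in Cpt1DKO (log2 fold change 1.53 ± 0.34 SE, adjusted p = 0.0143). Gsta1, a glutathione transferase with near-identical paralogs, had log2 fold change 2.94 ± 0.71 SE, adjusted p = 0.0276, and Tkt of the pentose phosphate pathway had log2 fold change 0.63 ± 0.12 SE, adjusted p = 0.00503. Classic targets that did not pass the test included Nqo1 (0.32 ± 0.24, adjusted p = 0.488), Hmox1 (0.999 ± 0.45, adjusted p = 0.231), Gclm (0.19 ± 0.21, adjusted p = 0.687) and Srxn1 (1.73 ± 0.53, adjusted p = 0.0704). Gclc lost its call without TKO replicate 1 (highest adjusted p 0.0545). Ugdh lost its call without TKO replicate 1 or Cpt1DKO replicate 3 (highest adjusted p 0.0621). Gsta1 lost its call without TKO replicate 1 or Cpt1DKO replicate 1, 3 or 4, and also with no filter on low counts (highest adjusted p 0.105). In this list the count called higher became 2 without TKO replicate 1 and 3 without Cpt1DKO replicate 3.

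The 250 bases before the start of 5 of these genes are printed. Fabp3, Pdk4, Nupr1 and Cbr3 led the rises of the PPARalpha, ATF4 and NRF2 lists, and Ugdh was added after the search because it alone of the called NRF2 members with a window held the motif of its list. They come from RefSeq's promoter entries on GRCm38.p6, an older build than that of the counts, and read 5′ to 3′ on the strand of the gene. Motif matches are in capitals and were searched on both strands as 2 copies of AGGNCA with 1 base between them (PPAR response element), TGACNNNGC (antioxidant response element, bound by NRF2) and TGATGNAA (CARE, bound by ATF4 with its partners).
Fabp3, chr4:130308488-130308737, + strand: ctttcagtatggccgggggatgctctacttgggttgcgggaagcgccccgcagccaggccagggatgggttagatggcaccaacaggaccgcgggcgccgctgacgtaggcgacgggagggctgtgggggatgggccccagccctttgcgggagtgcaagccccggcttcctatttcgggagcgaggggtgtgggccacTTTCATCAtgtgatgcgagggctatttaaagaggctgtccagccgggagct
Pdk4, chr6:5496279-5496528, - strand: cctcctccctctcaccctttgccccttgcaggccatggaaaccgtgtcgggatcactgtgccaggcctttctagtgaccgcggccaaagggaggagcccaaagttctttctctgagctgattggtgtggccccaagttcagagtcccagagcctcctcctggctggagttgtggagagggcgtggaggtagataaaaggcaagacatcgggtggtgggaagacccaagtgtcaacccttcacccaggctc
Nupr1, chr7:126625471-126625720, - strand: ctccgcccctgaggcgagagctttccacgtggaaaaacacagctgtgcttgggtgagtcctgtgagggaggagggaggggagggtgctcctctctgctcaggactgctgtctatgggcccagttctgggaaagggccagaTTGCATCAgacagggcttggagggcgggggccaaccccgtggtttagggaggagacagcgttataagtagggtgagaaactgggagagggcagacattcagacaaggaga
Cbr3, chr16:93682969-93683218, + strand: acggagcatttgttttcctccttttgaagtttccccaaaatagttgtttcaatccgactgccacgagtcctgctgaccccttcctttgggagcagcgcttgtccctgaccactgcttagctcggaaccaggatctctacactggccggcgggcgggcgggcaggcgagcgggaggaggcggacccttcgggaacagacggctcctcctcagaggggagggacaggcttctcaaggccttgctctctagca
Ugdh, chr5:65435843-65436092, - strand: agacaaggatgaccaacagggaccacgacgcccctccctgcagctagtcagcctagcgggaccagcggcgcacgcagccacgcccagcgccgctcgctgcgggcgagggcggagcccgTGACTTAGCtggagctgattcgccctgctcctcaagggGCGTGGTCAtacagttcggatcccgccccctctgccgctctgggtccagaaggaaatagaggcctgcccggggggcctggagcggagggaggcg
Nupr1 held the CARE letters as TTGCATCA on the other strand, and Fabp3 held them as TTTCATCA. Ugdh held the antioxidant letters as TGACTTAGC and as GCGTGGTCA. Pdk4 and Cbr3 had no match in this window, which says only that these letters are not in it. Of genes called higher with a window, 0 of 8 PPARalpha targets, 1 of 4 NRF2 targets and 1 of 5 ATF4 targets held the motif of its list. Over the 416 windows of genes called higher, 0.721% held the PPAR motif, 9.38% the antioxidant motif and 2.88% the CARE. The shares were 0.276%, 11.7% and 2.22% of the 14113 windows of genes tested. They were 0.338%, 10.2% and 3.45% of the 32851 windows searched. The search did not cover every chromosome, and 11011 of the 15669 genes tested had a window. The higher share for the PPAR motif rested on 3 windows.

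Some genes listed as markers of lipid-laden macrophages rose, while the defining markers of macrophages did not pass the test. Of 12 markers of lipid-associated macrophages, 3 rose and 0 fell, beside 2.6% of all genes called higher. In that list 7 log2 fold changes were above 0 and 5 below (median 0.47). Of the 14 markers of Kupffer cells and other macrophages, 3 were above 0 and 11 below (median -0.20). Gpnmb (chr6:49013480-49047863, + strand) stood at 27.6, 21.5, 20.7 and 24.9 CPM in the TKO livers, against 2.19, 2.29, 0.798 and 1.47 CPM in the Cpt1DKO livers (log2 fold change 3.79 ± 0.37 SE, adjusted p = 2.01e-05). Lgals3, which codes for the sugar-binding protein galectin-3, stood at 12.8, 23.1, 11.4 and 11.2 CPM in the TKO livers, against 3.51, 5.30, 4.87 and 2.87 CPM in the Cpt1DKO livers (log2 fold change 1.82 ± 0.28 SE, adjusted p = 0.000925), with TKO replicate 2 above the other libraries. Cd63, a tetraspanin of late endosomes and lysosomes, averaged 26.00 ± 12.5 CPM in TKO and 7.35 ± 3.99 CPM in Cpt1DKO (log2 fold change 1.82 ± 0.35 SE, adjusted p = 0.0067), and its groups overlapped. Cd63 lost its call in a fit of these 8 libraries alone (highest adjusted p 0.0608). Among 14 markers of Kupffer cells and other macrophages, Cd68, a lysosomal membrane protein, was the only one called, at 35.7, 37.9, 32.8 and 30.8 CPM in the TKO livers, against 7.02, 10.98, 8.30 and 6.93 CPM in the Cpt1DKO livers (log2 fold change 2.05 ± 0.26 SE, adjusted p = 0.000224). The defining markers Adgre1 (-0.12 ± 0.39, adjusted p = 0.9), Clec4f (-0.29 ± 0.21, adjusted p = 0.487) and Trem2 (-0.53 ± 0.54, adjusted p = 0.645) did not pass the test.

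The summed level of the 14 Kupffer cell and macrophage markers was 231.6 to 458.6 CPM in TKO and 351.1 to 474.5 CPM in Cpt1DKO, so the ranges overlapped. For the 12 lipid-associated macrophage markers it was 484.9 to 602 CPM in TKO and 411.4 to 511.4 CPM in Cpt1DKO, ranges that also overlapped. None of the markers of sinusoidal endothelium (14 tested), stellate cells and matrix (17), lymphocytes (9), neutrophils (3) or erythroid cells (6) was called, and Ly6g of neutrophils was at 0 in all 8 libraries. Over all genes tested, 4.65% were called, so 0 calls in lists this short is not read as a result about them. All 14 sinusoidal endothelial markers had log2 fold changes below 0 (median -0.37), and all 9 lymphocyte markers had values above 0 (median 0.31, lowest 0.00070). The lymphocyte markers summed to at most 8.88 CPM in TKO and 7.82 CPM in Cpt1DKO. Of 10 hepatocyte markers, Fgb (-1.08 ± 0.21), Alb (-0.84 ± 0.24) and Apoa1 (-0.68 ± 0.17) fell, beside 2.06% of all genes called lower. Apoa1 lost its call without TKO replicate 1, 3 or 4 or Cpt1DKO replicate 1, 3 or 4 (highest adjusted p 0.0791). Among 10 cholangiocyte markers Sox9 alone fell (log2 fold change -1.17 ± 0.32 SE, adjusted p = 0.0397), which is not read as a result about the list. Sox9 lost its call without TKO replicate 1 or 4 or Cpt1DKO replicate 1 or 4 (highest adjusted p 0.133). In whole liver, fewer cells of a type and less RNA per cell cannot be told apart.

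**Figure D2:**
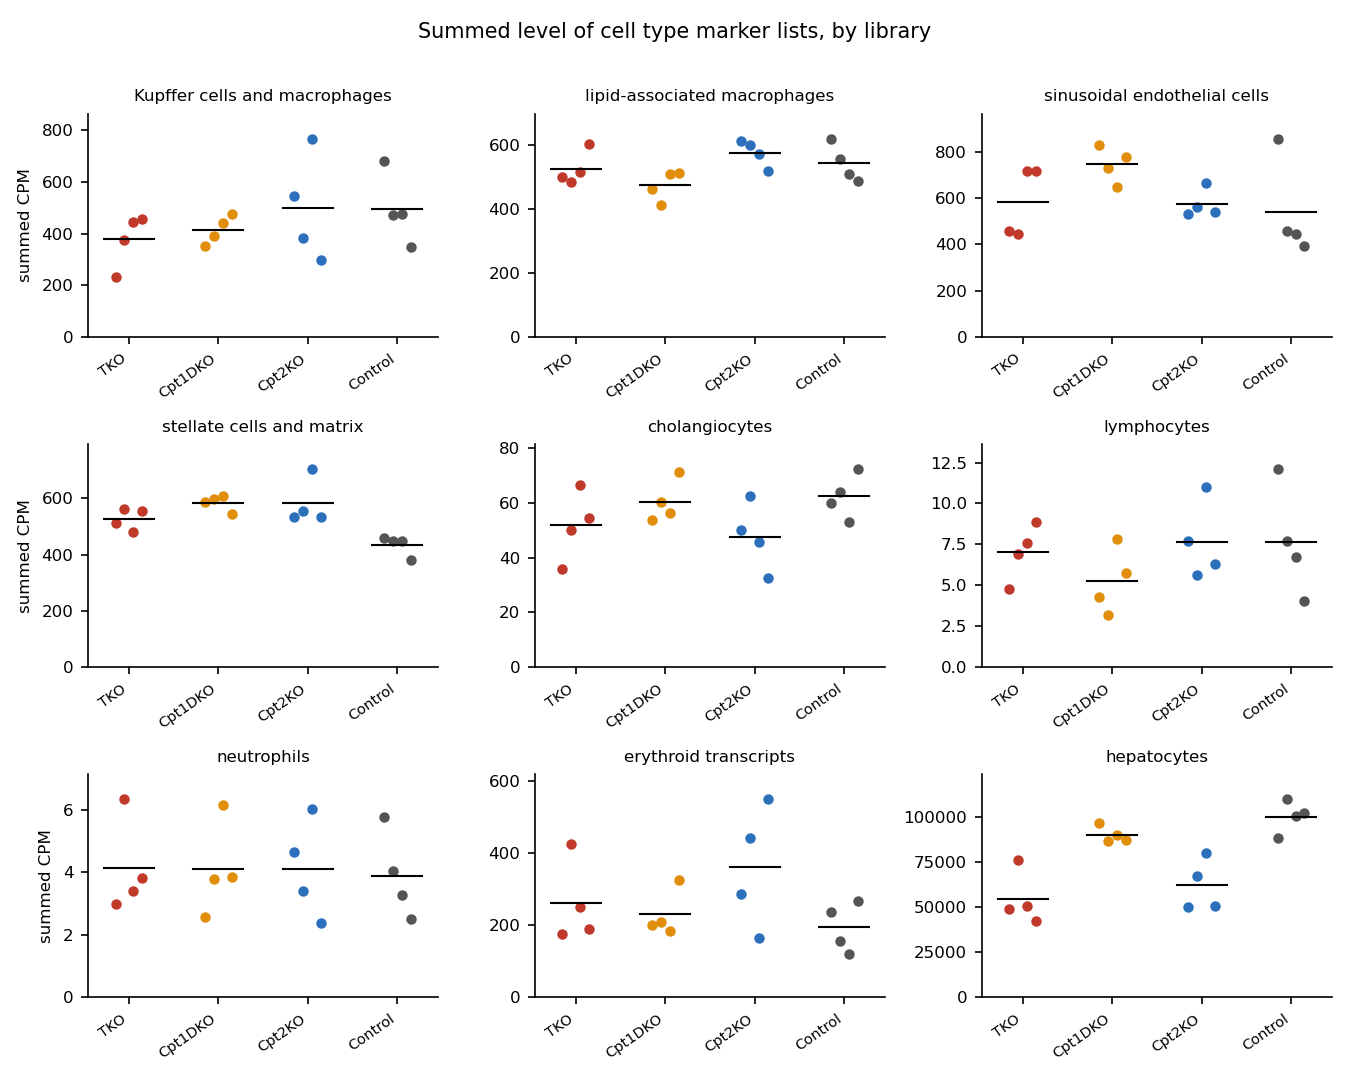
Summed CPM of 9 cell type marker lists in each TKO, Cpt1DKO, Cpt2KO and Control library, with bars at group means and every axis starting at 0. The TKO and Cpt1DKO ranges of the macrophage panel overlap, and the hepatocyte panel lies at 42250 to 76120 CPM in TKO and 86500 to 96250 CPM in Cpt1DKO.

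Actin genes and some of their binding partners rose. Of 20 tubulin and cytoskeleton genes, 5 were higher and 0 lower in TKO, beside 2.6% of all genes called higher. The list median was 0.49. Actg1, cytoplasmic gamma-actin, stood at 365, 409, 368 and 327 CPM in the TKO livers, against 181, 185, 116 and 137 CPM in the Cpt1DKO livers (log2 fold change 1.24 ± 0.14 SE, adjusted p = 3.23e-05), without overlap. Actb, cytoplasmic beta-actin, rose less (log2 fold change 0.53 ± 0.14 SE, adjusted p = 0.0275). The annexin Anxa2 (1.02 ± 0.26), the calcium-binding S100a11 (1.403 ± 0.37) and the thymosin Tmsb10 (0.77 ± 0.21) rose with groups that overlapped. None of the tubulins was called, and Tubb2b averaged 12.2 ± 6.29 CPM in TKO and 3.87 ± 3.86 CPM in Cpt1DKO (log2 fold change 1.65 ± 0.70 SE, adjusted p = 0.2). Anxa2 lost its call without TKO replicate 1 or 4 or Cpt1DKO replicate 1, 3 or 4, and also with no filter on low counts (highest adjusted p 0.0984). S100a11 lost its call without TKO replicate 1 or 4 or Cpt1DKO replicate 1, 3 or 4, and also with no filter on low counts or in a fit of these 8 libraries alone (highest adjusted p 0.125). Tmsb10 lost its call without TKO replicate 1, 3 or 4 or Cpt1DKO replicate 1 or 3, and also in a fit of these 8 libraries alone (highest adjusted p 0.118). The number of cytoskeletal genes called higher became 1 without TKO replicate 1 or 4 or Cpt1DKO replicate 3, 2 without Cpt1DKO replicate 1 or 4 and 3 without TKO replicate 3.

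Several of the largest rises belonged to none of the lists. Endod1 (chr9:14265286-14292803, - strand), which codes for an endonuclease domain protein, stood at 20.9, 28.1, 30.8 and 25.2 CPM in the TKO livers, against 2.91, 2.75, 3.11 and 2.87 CPM in the Cpt1DKO livers (log2 fold change 3.17 ± 0.24 SE, adjusted p = 2.30e-07). Its libraries were tightly grouped, and Cpt1DKO livers stood near the Control mean of 2.70 CPM. Sema3b, a secreted semaphorin, stood at 46.7, 25.1, 31.3 and 41.6 CPM in the TKO livers, against 5.03, 7.45, 4.31 and 5.58 CPM in the Cpt1DKO livers (log2 fold change 2.69 ± 0.28 SE, adjusted p = 2.73e-05). Maoa, the mitochondrial monoamine oxidase A, stood at 62.1, 25.3, 42.4 and 39.6 CPM in the TKO livers, against 8.14, 6.41, 11.3 and 8.68 CPM in the Cpt1DKO livers (log2 fold change 2.30 ± 0.37 SE, adjusted p = 0.00194). The groups of Sema3b and Maoa did not overlap.

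Orm2, an acute phase carrier protein with close paralogs, averaged 57.1 ± 37.97 CPM in TKO and 5.05 ± 2.51 CPM in Cpt1DKO (log2 fold change 3.49 ± 0.55 SE, adjusted p = 0.00206). Dlec1 averaged 10.1 ± 4.78 CPM in TKO and 2.43 ± 0.879 CPM in Cpt1DKO (log2 fold change 2.04 ± 0.39 SE, adjusted p = 0.00563). In both genes the TKO libraries lay above the Cpt1DKO libraries. Elovl7, an elongase of long-chain fatty acids, averaged 23.00 ± 6.62 CPM in TKO and 3.59 ± 3.59 CPM in Cpt1DKO (log2 fold change 2.67 ± 0.68 SE, adjusted p = 0.0358). Themis, known from T cell development, averaged 11.8 ± 3.93 CPM in TKO and 2.13 ± 1.09 CPM in Cpt1DKO (log2 fold change 2.46 ± 0.57 SE, adjusted p = 0.0191), while the lymphocyte markers were not called. In these genes, too, no Cpt1DKO library reached a TKO library. Gnai1, a G protein alpha subunit, averaged 18.5 ± 3.63 CPM in TKO and 4.41 ± 0.455 CPM in Cpt1DKO (log2 fold change 2.06 ± 0.53 SE, adjusted p = 0.0335). Tnfrsf10b, a death receptor and the only called member of 20 p53 and growth arrest targets, averaged 3.13 ± 0.802 CPM in TKO and 0.894 ± 0.463 CPM in Cpt1DKO (log2 fold change 1.77 ± 0.47 SE, adjusted p = 0.0323). Beside 2.6% of all genes called higher, this single call is not read as a result about the list. Elovl7 lost its call without TKO replicate 1, 3 or 4 or Cpt1DKO replicate 1, 3 or 4, and also with no filter on low counts (highest adjusted p 0.115). Themis lost its call without TKO replicate 1 or Cpt1DKO replicate 1 or 3, and also with no filter on low counts (highest adjusted p 0.0651). Gnai1 lost its call without TKO replicate 1, 2 or 3 or Cpt1DKO replicate 1, 2, 3 or 4, and also with no filter on low counts (highest adjusted p 0.0985). Tnfrsf10b lost its call without TKO replicate 1 or 3 or Cpt1DKO replicate 1, 2, 3 or 4 (highest adjusted p 0.0995).

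Genes that make and move bile acids fell in part. Of 20 members of the bile acid list, 6 were lower and 0 higher in TKO, beside 2.06% of all genes called lower, and the list median was -0.52. Cyp7a1 (chr4:6265612-6275633, - strand) stood at 28.3, 6.81, 8.26 and 24.6 CPM in the TKO livers, against 194, 134, 111 and 155 CPM in the Cpt1DKO livers (log2 fold change -3.13 ± 0.45 SE, adjusted p = 0.00104). Akr1d1, the reductase that saturates the steroid ring, stood at 8.18, 21.6, 11.99 and 8.92 CPM in the TKO livers, against 54.03, 45.2, 156 and 91.5 CPM in the Cpt1DKO livers (log2 fold change -2.78 ± 0.56 SE, adjusted p = 0.0113). Abcb11, the bile salt export pump, stood at 37.4, 51.1, 46.04 and 41.00 CPM in the TKO livers, against 163, 97.3, 157 and 177 CPM in the Cpt1DKO livers (log2 fold change -1.76 ± 0.36 SE, adjusted p = 0.0106). All 4 TKO libraries of these genes were below all 4 Cpt1DKO libraries. The uptake transporters Slco1a4 and Slc10a1 also fell, with log2 fold changes of -2.11 and -1.03, as did Baat (-0.65 ± 0.18), which joins bile acids to amino acids. The remaining enzymes gave Cyp8b1 (-0.56 ± 0.54, adjusted p = 0.625), Cyp27a1 (-0.43 ± 0.16, adjusted p = 0.116) and Cyp7b1 (0.06 ± 0.60, adjusted p = 0.971), and the bile acid receptor Nr1h4 (-0.33 ± 0.15, adjusted p = 0.237) and its target Nr0b2 (-1.79 ± 0.78, adjusted p = 0.213) were not called. Akr1d1 lost its call without TKO replicate 1 (highest adjusted p 0.0502). Slco1a4 lost its call without TKO replicate 1, 3 or 4 or Cpt1DKO replicate 1, 2, 3 or 4, and also with no filter on low counts (highest adjusted p 0.114). The number of bile acid genes called lower became 2 without TKO replicate 1 and 3 without TKO replicate 3 or 4 or Cpt1DKO replicate 1, 3 or 4.

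Some cytochromes P450 of drug and steroid metabolism fell, with 5 of 27 lower, 0 higher, 22 not called and a list median of -0.47. Of all genes tested, 2.06% were called lower. Cyp2c38 stood at 12.8, 10.99, 14.8 and 23.2 CPM in the TKO livers, against 147, 116, 76.9 and 106 CPM in the Cpt1DKO livers (log2 fold change -2.85 ± 0.49 SE, adjusted p = 0.0039), and Cyp2c37 (-1.74 ± 0.35), Cyp2c39 (-1.79 ± 0.41), Cyp3a13 (-0.71 ± 0.16) and Cyp2j5 (-0.54 ± 0.15) fell with it, Cyp3a13 with groups that overlapped. The Cyp2c genes belong to a family whose members can share reads. Cyp17a1, the steroid 17-alpha-hydroxylase, stood at 5.94, 35.4, 18.8 and 9.88 CPM in the TKO livers, against 209, 160.4, 44.8 and 80.6 CPM in the Cpt1DKO livers (log2 fold change -2.83 ± 0.67 SE, adjusted p = 0.0255). Its TKO libraries were below all Cpt1DKO libraries, and 3 of the 4 Cpt1DKO libraries were above the Control mean of 50.0 CPM. Cyp2c39 lost its call without TKO replicate 3, and also with no filter on low counts (highest adjusted p 0.0579). Cyp3a13 lost its call without TKO replicate 1, 3 or 4 or Cpt1DKO replicate 3 (highest adjusted p 0.0665). Cyp17a1 lost its call without TKO replicate 1, 3 or 4 or Cpt1DKO replicate 1, and also in a fit of these 8 libraries alone (highest adjusted p 0.0803). The number of P450 genes called lower became 2 without TKO replicate 3 and 3 without TKO replicate 1 or 4 or Cpt1DKO replicate 3.

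**Figure D3:**
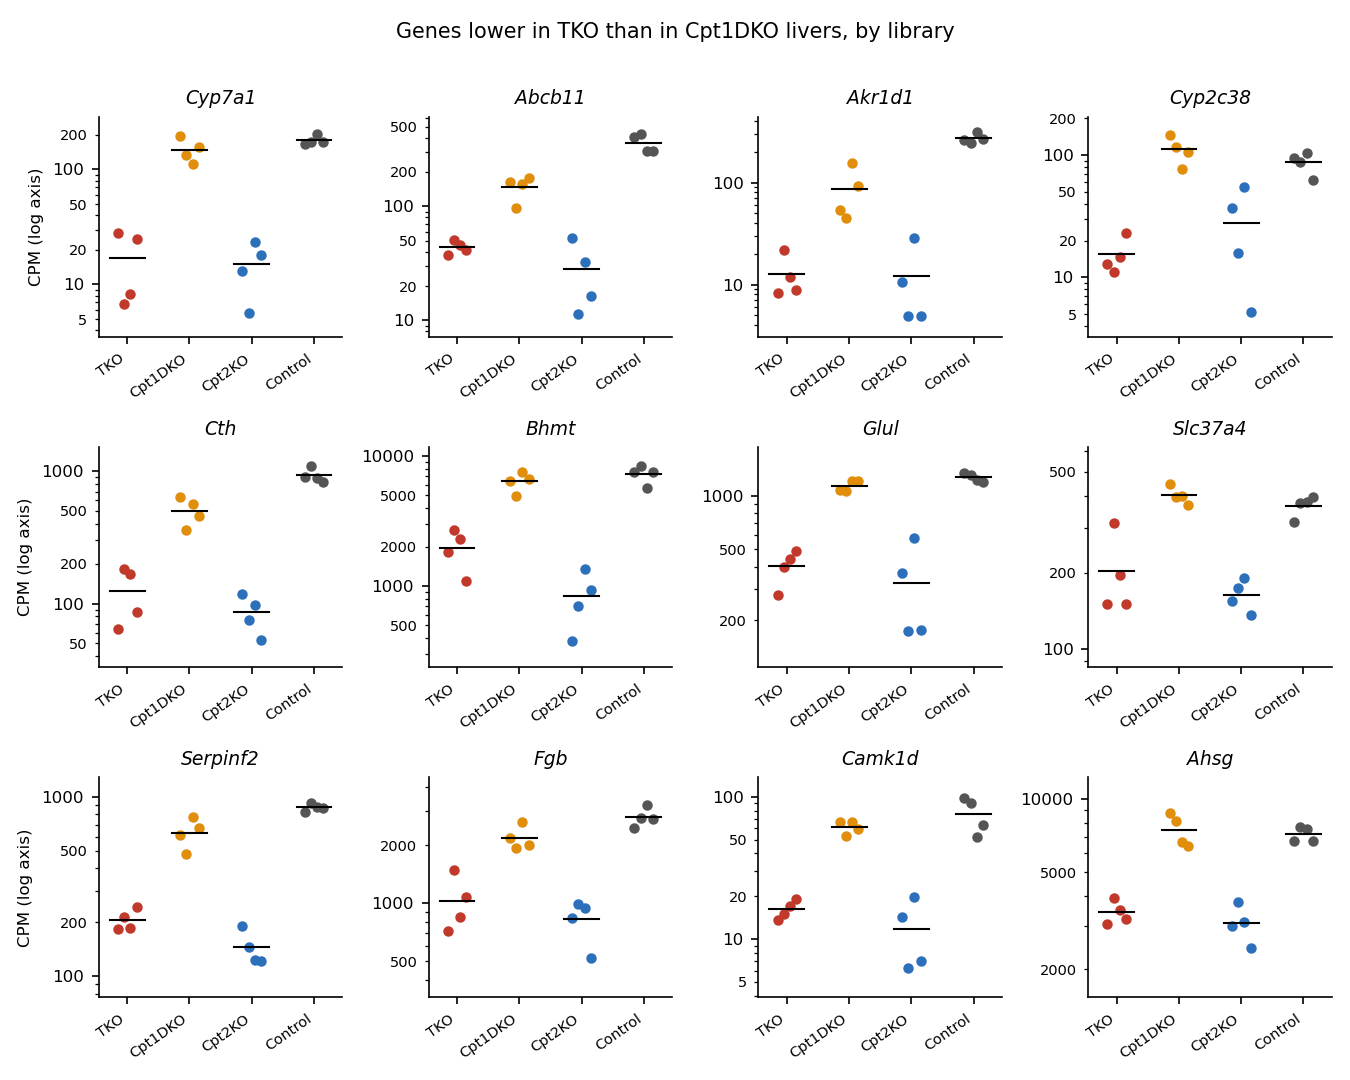
Levels of 12 genes called lower in TKO than in Cpt1DKO livers, in CPM on a log axis whose range differs between panels, with 1 point per library and bars at means of 4. TKO points lie below all Cpt1DKO points in each panel, and Cyp7a1 runs at 17.0 CPM in TKO and 149 CPM in Cpt1DKO on average.

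Some enzymes that dispose of amino acids and nitrogen fell. Of 26 genes of hepatic amino acid breakdown, 6 were lower and 0 higher, beside 2.06% of all genes called lower. The list median was -0.74, the lowest of the 29 pathway lists. Bhmt, which remethylates homocysteine with betaine, stood at 1827, 2712, 2288 and 1086 CPM in the TKO livers, against 6407, 4918, 7552 and 6667 CPM in the Cpt1DKO livers (log2 fold change -1.69 ± 0.34 SE, adjusted p = 0.0084). Kynu, of the kynurenine route from tryptophan, averaged 65.3 ± 4.04 CPM in TKO and 158 ± 30.3 CPM in Cpt1DKO (log2 fold change -1.27 ± 0.23 SE, adjusted p = 0.00335). Haao, of the same route, averaged 62.8 ± 14.9 CPM in TKO and 167 ± 49.8 CPM in Cpt1DKO (log2 fold change -1.41 ± 0.31 SE, adjusted p = 0.0154). All TKO libraries of these 3 genes were below all Cpt1DKO libraries. Among 14 genes of the urea cycle and nitrogen disposal, the ornithine carrier Slc25a15 (-0.66 ± 0.18) fell, as did Glul, the glutamine synthetase of pericentral hepatocytes. Glul stood at 277, 399.7, 441 and 489 CPM in the TKO livers, against 1076, 1062, 1212 and 1210.5 CPM in the Cpt1DKO livers (log2 fold change -1.50 ± 0.28 SE, adjusted p = 0.00419), without overlap. The urea cycle enzymes Cps1 (-0.77 ± 0.24, adjusted p = 0.0665), Ass1 (-0.65 ± 0.23, adjusted p = 0.101) and Arg1 (-0.47 ± 0.22, adjusted p = 0.237) did not pass the test. Car5a, a mitochondrial carbonic anhydrase, averaged 4.17 ± 1.20 CPM in TKO and 22.6 ± 15.5 CPM in Cpt1DKO (log2 fold change -2.45 ± 0.62 SE, adjusted p = 0.033). Haao lost its call without TKO replicate 1 or 4 or Cpt1DKO replicate 3 or 4 (highest adjusted p 0.0621). Slc25a15 lost its call without TKO replicate 1, 2, 3 or 4 or Cpt1DKO replicate 1, 2 or 4, and also in a fit of these 8 libraries alone (highest adjusted p 0.165). Car5a lost its call without TKO replicate 1, 3 or 4 or Cpt1DKO replicate 3 or 4, and also with no filter on low counts (highest adjusted p 0.108). The number of amino acid genes called lower became 2 without TKO replicate 1 or 4 or Cpt1DKO replicate 3, 3 without Cpt1DKO replicate 4 and 13 without TKO replicate 2.

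Some genes of glucose production fell, with 3 of 18 members of the gluconeogenesis list lower, 0 higher, 15 not called and a median of -0.59. The share called lower over all genes tested was 2.06%. Slc37a4, which carries glucose-6-phosphate into the endoplasmic reticulum, stood at 149.9, 314, 195 and 151 CPM in the TKO livers, against 446, 399, 399.6 and 369 CPM in the Cpt1DKO livers (log2 fold change -0.996 ± 0.18 SE, adjusted p = 0.00335), without overlap. G6pc, the phosphatase that acts on it there, averaged 138 ± 64.8 CPM in TKO and 443 ± 102 CPM in Cpt1DKO (log2 fold change -1.69 ± 0.45 SE, adjusted p = 0.0415). Slc2a2, the liver glucose transporter, averaged 141 ± 19.2 CPM in TKO and 251 ± 94.8 CPM in Cpt1DKO (log2 fold change -0.83 ± 0.23 SE, adjusted p = 0.0397), and its groups overlapped. Pck1, the enzyme at the entry to gluconeogenesis, was not called (log2 fold change -0.68 ± 0.28 SE, adjusted p = 0.179). G6pc lost its call without TKO replicate 1, 3 or 4 or Cpt1DKO replicate 1, 3 or 4, and also with no filter on low counts (highest adjusted p 0.108). Slc2a2 lost its call without TKO replicate 1, 2, 3 or 4 or Cpt1DKO replicate 1, 3 or 4, and also with no filter on low counts or in a fit of these 8 libraries alone (highest adjusted p 0.16). The count called lower in this list became 1 without TKO replicate 1, 3 or 4 or Cpt1DKO replicate 1, 3 or 4.

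Some genes for proteins that hepatocytes secrete into blood fell. Of 29 carrier proteins 11 were lower and 0 higher (median -0.43), and of 32 coagulation and complement genes 6 were lower and 0 higher (median -0.43). Of 24 acute phase genes 9 were lower and 1 higher (median -0.44). Over all genes tested, 2.06% were called lower and 2.6% higher. Ahsg, the carrier fetuin-A, stood at 3073, 3907, 3507 and 3221 CPM in the TKO livers, against 8805, 8131, 6653 and 6432 CPM in the Cpt1DKO livers (log2 fold change -1.13 ± 0.16 SE, adjusted p = 0.000298). Serpinf2, the plasmin inhibitor, stood at 185, 215, 185 and 243 CPM in the TKO livers, against 614, 479, 769 and 671 CPM in the Cpt1DKO livers (log2 fold change -1.61 ± 0.18 SE, adjusted p = 3.50e-05). Fgb, the fibrinogen beta chain, stood at 716, 1487, 853 and 1072 CPM in the TKO livers, against 2178, 1929.8, 2632 and 2012 CPM in the Cpt1DKO livers (log2 fold change -1.08 ± 0.21 SE, adjusted p = 0.00532). The TKO libraries were below the Cpt1DKO libraries in all 3 genes. The acute phase member that rose was Orm2, while Saa4 (-1.84 ± 0.47), Serpina3n (-1.33 ± 0.24) and Hp (-0.80 ± 0.18) fell. The thrombin inhibitor Serpind1 (-1.80 ± 0.41), mannose-binding lectin Mbl2 (-1.18 ± 0.24) and plasminogen Plg (-0.96 ± 0.25) fell as well, the last with groups that overlapped.

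Alb, the most abundant secreted product, averaged 27674 ± 9096 CPM in TKO and 49384 ± 2096 CPM in Cpt1DKO (log2 fold change -0.84 ± 0.24 SE, adjusted p = 0.0482) and took 2.79 ± 0.71% of all counts in TKO and 4.61 ± 0.23% in Cpt1DKO (SD, n = 4 each). The hepatocyte marker sum was lower in each TKO library than in each Cpt1DKO library. It averaged 54430 CPM in TKO and 89810 CPM in Cpt1DKO and counts Alb, so it is not a separate observation. Of its 10 markers, 3 were called lower and 7 were not called. The part of this sum in the falls was not tested. Alb lost its call without TKO replicate 1, 3 or 4 or Cpt1DKO replicate 1, 2, 3 or 4, and also in a fit of these 8 libraries alone (highest adjusted p 0.145). Saa4 lost its call without TKO replicate 1, 3 or 4 or Cpt1DKO replicate 3 or 4, and also with no filter on low counts or in a fit of these 8 libraries alone (highest adjusted p 0.105). Serpind1 lost its call without TKO replicate 1, 3 or 4 or Cpt1DKO replicate 3 or 4, and also with no filter on low counts or in a fit of these 8 libraries alone (highest adjusted p 0.0768). Plg lost its call without TKO replicate 1, 3 or 4 or Cpt1DKO replicate 1, 3 or 4, and also with no filter on low counts or in a fit of these 8 libraries alone (highest adjusted p 0.112). The count of carriers called lower became 1 without TKO replicate 4, 2 without TKO replicate 1 or 3 or Cpt1DKO replicate 3 or 4 and 3 without Cpt1DKO replicate 1. For coagulation and complement it became 2 without TKO replicate 1, 3 or 4 or Cpt1DKO replicate 3 or 4, 11 without TKO replicate 2 and 13 without Cpt1DKO replicate 2, and for the acute phase list 2 without TKO replicate 1 or Cpt1DKO replicate 3 or 4, 3 without TKO replicate 3, 4 without Cpt1DKO replicate 1 and 5 without TKO replicate 4.

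Other large falls lay outside the lists. Camk1d, a calcium-activated kinase, stood at 13.6, 15.03, 17.2 and 19.2 CPM in the TKO livers, against 66.5, 53.3, 67.05 and 59.1 CPM in the Cpt1DKO livers (log2 fold change -1.92 ± 0.29 SE, adjusted p = 0.00136). Tbc1d30, a GTPase-activating protein gene, stood at 6.91, 12.4, 8.12 and 8.10 CPM in the TKO livers, against 47.7, 28.96, 18.6 and 30.4 CPM in the Cpt1DKO livers (log2 fold change -1.83 ± 0.35 SE, adjusted p = 0.0064). Neither gene's groups overlapped. The ectoenzyme Enpp3 (-1.81 ± 0.41), the apolipoprotein L gene Apol7a (-1.86 ± 0.44) and the glycosyltransferase B3galt1 (-1.79 ± 0.47) fell as well, without overlap. Enpp3 lost its call without TKO replicate 1 or 3 or Cpt1DKO replicate 3 or 4 (highest adjusted p 0.0709). Apol7a lost its call without TKO replicate 1, 2 or 4 or Cpt1DKO replicate 3 or 4, and also with no filter on low counts or in a fit of these 8 libraries alone (highest adjusted p 0.0886). B3galt1 lost its call without TKO replicate 1, 3 or 4 or Cpt1DKO replicate 1, 2, 3 or 4, and also with no filter on low counts (highest adjusted p 0.116).

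In each of the other lists, 3 members or fewer were called in either direction, beside 2.6% of all genes called higher and 2.06% lower. The 1 call in each of the lipogenic, lysosome and clock lists (5.56%, 4% and 5.56% of members) is not read as a result about the list. Of 42 nuclear genes of the respiratory chain and ATP synthase, 15 mitochondrial DNA transcripts, 20 chaperones of the endoplasmic reticulum and 22 cell cycle genes, 0 were called, with list medians of -0.10, 0.29, -0.26 and 0.00. Mitochondrial DNA transcripts took 5.63% to 8.02% of counts in TKO and 4.79% to 5.70% in Cpt1DKO. Among 25 cholesterol genes 2 fell, including Ebp (-0.60 ± 0.13), an enzyme of the late pathway. Elovl6, an elongase of palmitate, was the only one of 18 lipogenic genes to fall (log2 fold change -1.05 ± 0.19 SE, adjusted p = 0.00346). Of 24 interferon-stimulated and antigen presentation genes 3 fell, namely Ifit1 (-1.35 ± 0.32), Isg15 (-0.96 ± 0.27) and Stat2 (-0.62 ± 0.16), and the groups of Ifit1 and Isg15 overlapped. Lipa, the lysosomal acid lipase, was the only one of 25 lysosome and autophagy genes to rise (log2 fold change 0.57 ± 0.12 SE, adjusted p = 0.00851), and Bhlhe40 the only one of 18 clock genes (log2 fold change 1.09 ± 0.27 SE, adjusted p = 0.026). Among 22 secreted stress and fasting hormones, Fst (-1.68 ± 0.47), Igfbp4 (-0.80 ± 0.14) and Igfbp2 (-0.64 ± 0.17) fell beside the rise of Gdf15. Fst, which codes for the activin-binding protein follistatin, stood at 3.21, 4.18, 3.97 and 2.24 CPM in the TKO livers, against 24.6, 9.74, 5.35 and 3.61 CPM in the Cpt1DKO livers. Its groups overlapped, Cpt1DKO replicate 1 was far above the other libraries, and without that library the log2 fold change was -0.88.

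Ebp lost its call without TKO replicate 1 or 4 (highest adjusted p 0.0528). Isg15 lost its call without TKO replicate 2, 3 or 4 or Cpt1DKO replicate 1, 3 or 4, and also with no filter on low counts or in a fit of these 8 libraries alone (highest adjusted p 0.148). Stat2 lost its call without TKO replicate 1, 2 or 4 or Cpt1DKO replicate 3 or 4 (highest adjusted p 0.0961). Ifit1 lost its call without TKO replicate 4 or Cpt1DKO replicate 3, and also in a fit of these 8 libraries alone (highest adjusted p 0.0886). Bhlhe40 lost its call without TKO replicate 3 or 4 or Cpt1DKO replicate 1 or 4, and also with no filter on low counts (highest adjusted p 0.0849). Fst lost its call without TKO replicate 1, 2, 3 or 4 or Cpt1DKO replicate 1 or 2, and also with no filter on low counts, in a fit of these 8 libraries alone or with DESeq2's size factors (highest adjusted p 0.21). Igfbp2 lost its call without TKO replicate 1 or 4 or Cpt1DKO replicate 1, 3 or 4 (highest adjusted p 0.118). The count of interferon-stimulated genes called lower became 0 without TKO replicate 4 or Cpt1DKO replicate 3, 1 without TKO replicate 2 or Cpt1DKO replicate 4 and 8 without Cpt1DKO replicate 2.

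**Figure D4:**
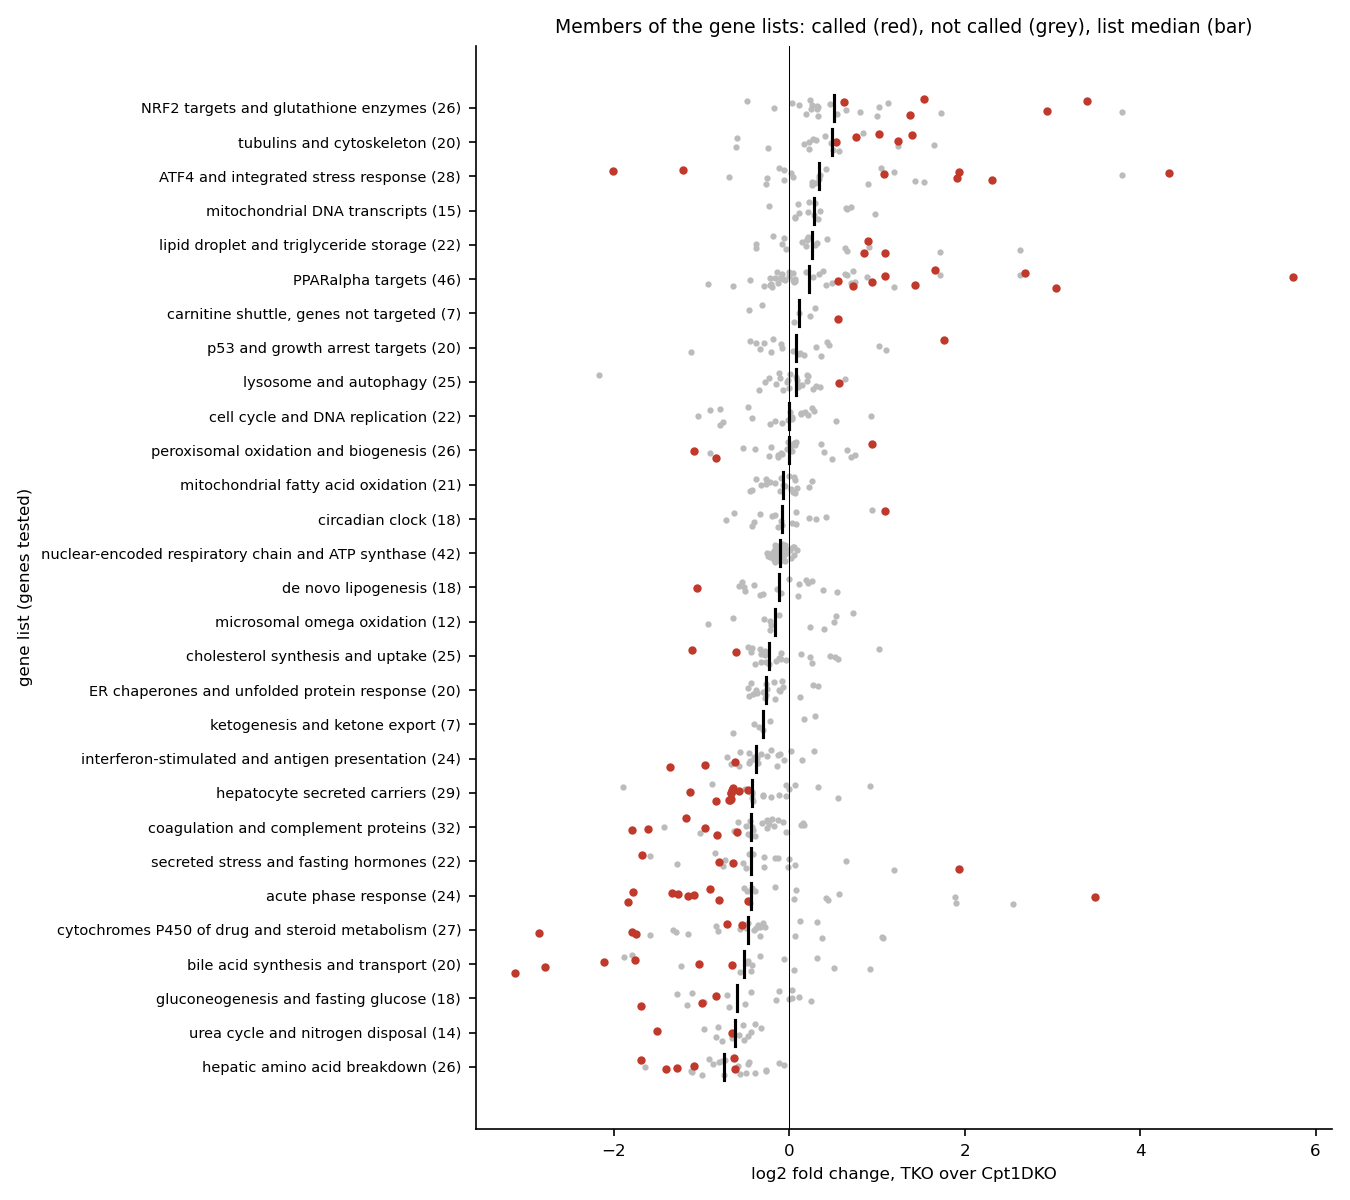
Log2 fold changes of TKO over Cpt1DKO for the members of 29 pathway lists, with called genes in red, other genes in grey and the list median as a bar. The highest median is 0.51 for the NRF2 list and the lowest is -0.74 for hepatic amino acid breakdown.

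More genes were called for loss of Cpt2 where Cpt1a and Cpt1b were present. Cpt2KO against Control gave 5228 called genes, 2538 higher and 2690 lower (33.4% of the genes tested), against 729 for TKO against Cpt1DKO. Of the 729, 637 (87.4%) were called in the same direction in Cpt2KO against Control, 3 in the opposite direction and 89 not at all, and the 637 were 12.2% of the larger set. The change was larger in size in Cpt2KO against Control for 544 of the 729. Over the 637 the median ratio of the change in TKO to that in Cpt2KO, both on the log2 scale, was 0.66. Across all genes tested the log2 fold changes of the pair had a Pearson correlation of 0.605 and a Spearman correlation of 0.544, a description in which genes are not independent. Of the 46 PPARalpha targets, 36 rose in Cpt2KO against Control (median 1.15, beside 16.2% of all genes called higher there) and 9 in TKO (median 0.23).

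The difference between these changes was tested as an interaction, which called 423 genes, 222 positive and 201 negative (2.7%, 1.42% and 1.28% of the genes tested). In 409 of them the change was called in Cpt2KO and larger there in size. Of the 729 genes, 73 had a called interaction. The range over fits that left out 1 library was 178 without Cpt1DKO replicate 1 to 585 without Cpt2KO replicate 1. Counts more than 1.5 times below 423 were also found without Control replicate 1 (259), 2 (230), 3 (244) or 4 (246), Cpt1DKO replicate 2 (209), Cpt2KO replicate 2 (205) and TKO replicate 2 (281) or 3 (221). Replicate 3 of Cpt2KO showed a female pattern of sex-linked transcripts, while the TKO, Cpt1DKO and Control libraries were male in pattern. Without that library alone the interaction count was also 423, but with 206 positive and 217 negative, so the called genes were not all the same. With a Cpt2PparaDKO library of like pattern, which is in none of the 4 groups, left out as well, 973 interactions were called, and the cause was not tested.

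Pdk4 changed less in TKO than in Cpt2KO. It averaged 562 ± 297 CPM in TKO and 68.5 ± 42.4 CPM in Cpt1DKO against 769.7 ± 187 CPM in Cpt2KO and 8.47 ± 3.32 CPM in Control (SD, n = 4 each), so its log2 fold change was 3.04 in TKO and 6.51 in Cpt2KO, and the interaction was -3.47 ± 0.65 SE, adjusted p = 0.00939. Gpnmb averaged 23.7 ± 3.18 CPM in TKO and 1.68 ± 0.695 CPM in Cpt1DKO, against 37.95 ± 13.7 CPM in Cpt2KO and 0.249 ± 0.257 CPM in Control, with an interaction of -3.42 ± 0.65 SE, adjusted p = 0.00894. In both genes the Cpt1DKO mean lay above the Control mean, and the TKO mean lay below that of Cpt2KO. Plin2 averaged 3042 ± 507 CPM in TKO and 1425 ± 309 CPM in Cpt1DKO, against 3933 ± 910.5 CPM in Cpt2KO and 455 ± 81.9 CPM in Control, with an interaction of -2.02 ± 0.31 SE, adjusted p = 0.00162. Fgf21 averaged 67.9 ± 44.2 CPM in TKO and 29.6 ± 12.01 CPM in Cpt1DKO, against 74.9 ± 23.9 CPM in Cpt2KO and 3.45 ± 1.92 CPM in Control, with an interaction of -3.27 ± 0.71 SE, adjusted p = 0.0237. Cidec averaged 468 ± 51.8 CPM in TKO and 302 ± 64.8 CPM in Cpt1DKO, against 479.5 ± 95.9 CPM in Cpt2KO and 24.3 ± 4.19 CPM in Control, with an interaction of -3.67 ± 0.29 SE, adjusted p = 4.31e-07. Fgf21 and Cidec were called higher in Cpt2KO (adjusted p = 1.85e-05 and 8.40e-11) and did not pass the test in TKO. The interactions of Pdk4, Gpnmb, Plin2 and Cidec were called in all 16 fits that left out 1 library of these 4 groups, and that of Fgf21 in 11 (highest adjusted p 0.0555).

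For other genes the interaction was not called. Endod1 had log2 fold changes of 3.17 in TKO and 4.06 in Cpt2KO, and the interaction was -0.88 ± 0.33 SE, adjusted p = 0.155. For Cd68 they were 2.05 and 2.25 (-0.20 ± 0.36 SE, adjusted p = 0.816), for Maoa 2.30 and 2.52 (-0.22 ± 0.50 SE, adjusted p = 0.862), and for Cbr3 3.40 and 4.09 (-0.70 ± 0.84 SE, adjusted p = 0.711). For Cyp7a1 they were -3.13 and -3.58 (0.45 ± 0.59 SE, adjusted p = 0.736). Interactions that miss the threshold do not show that the changes were equal.

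The largest called interactions included genes that Cpt2 loss moved in Cpt2KO with no call in TKO. Lepr, the leptin receptor, averaged 71.2 ± 38.8 CPM in TKO and 97.9 ± 68.4 CPM in Cpt1DKO, against 199 ± 73.5 CPM in Cpt2KO and 7.75 ± 2.72 CPM in Control (interaction -5.14 ± 0.91 SE, adjusted p = 0.00767). Thrsp, a lipogenic nuclear protein, averaged 4.29 ± 2.30 CPM in TKO and 5.62 ± 1.79 CPM in Cpt1DKO, against 2.59 ± 0.713 CPM in Cpt2KO and 38.2 ± 10.4 CPM in Control (interaction 3.47 ± 0.43 SE, adjusted p = 0.000225). In both genes the TKO and Cpt1DKO libraries overlapped, while Cpt2KO and Control did not. Car3, a carbonic anhydrase abundant in liver, averaged 29.3 ± 14.5 CPM in TKO and 35.9 ± 40.7 CPM in Cpt1DKO, against 16.6 ± 7.38 CPM in Cpt2KO and 319.8 ± 30.6 CPM in Control (interaction 3.98 ± 1.02 SE, adjusted p = 0.0491). Ppp1r3g and Ppp1r3c, both glycogen-targeting subunits of a protein phosphatase, had interactions of -5.29 ± 1.19 SE, adjusted p = 0.0301 and 3.96 ± 0.94 SE, adjusted p = 0.0381. Lepr and Thrsp kept a called interaction in all 16 fits with 1 library left out, Ppp1r3g in 8 (highest adjusted p 0.0667), Ppp1r3c in 5 (0.0804) and Car3 in 1 (0.103). In Ppp1r3g 1 Cpt1DKO library stood at 99.5 CPM and the other 3 at 9.58 to 23.0 CPM.

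A smaller set was called in TKO against Cpt1DKO but not in Cpt2KO against Control. Among 55 such protein-coding genes averaging 5 CPM or more, with no overlap between TKO and Cpt1DKO libraries, the largest changes were those of Cyp17a1, Slco1a4 and Tsku. Tsku, a secreted liver protein, averaged 234 ± 30.8 CPM in TKO and 75.8 ± 16.1 CPM in Cpt1DKO, against 115 ± 23.7 CPM in Cpt2KO and 167 ± 37.9 CPM in Control, with an interaction of 2.17 ± 0.52 SE, adjusted p = 0.0375. Adamtsl2, an extracellular matrix protein gene, averaged 6.14 ± 1.12 CPM in TKO and 13.4 ± 1.35 CPM in Cpt1DKO, against 6.92 ± 0.645 CPM in Cpt2KO and 8.12 ± 1.49 CPM in Control, with an interaction of -0.90 ± 0.23 SE, adjusted p = 0.0387. Cyp17a1 and Slco1a4 did not have a called interaction, with adjusted p of 0.198 and 0.267. Cyp17a1 stood at 19.2, 17.9, 81.9 and 11.8 CPM in the Cpt2KO livers, against 31.4 to 62.0 CPM in Control. Slco1a4 stood at 37.7, 25.5, 229 and 63.4 CPM in the Cpt2KO livers, against 110 to 151 CPM in Control. In both genes Cpt2KO replicate 3, of female pattern, lay above Control and the other Cpt2KO libraries below it. The part of this library in the missing calls was not tested. Gclc averaged 541 ± 160.5 CPM in TKO and 208 ± 11.6 CPM in Cpt1DKO, against 366 ± 178 CPM in Cpt2KO and 252 ± 23.9 CPM in Control. Its interaction was 0.84 ± 0.41 SE, adjusted p = 0.285. The Cpt2KO libraries of Gclc stood at 454, 310, 146 and 555 CPM, so replicate 3 alone was below Control (232 to 286 CPM).

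**Figure D5:**
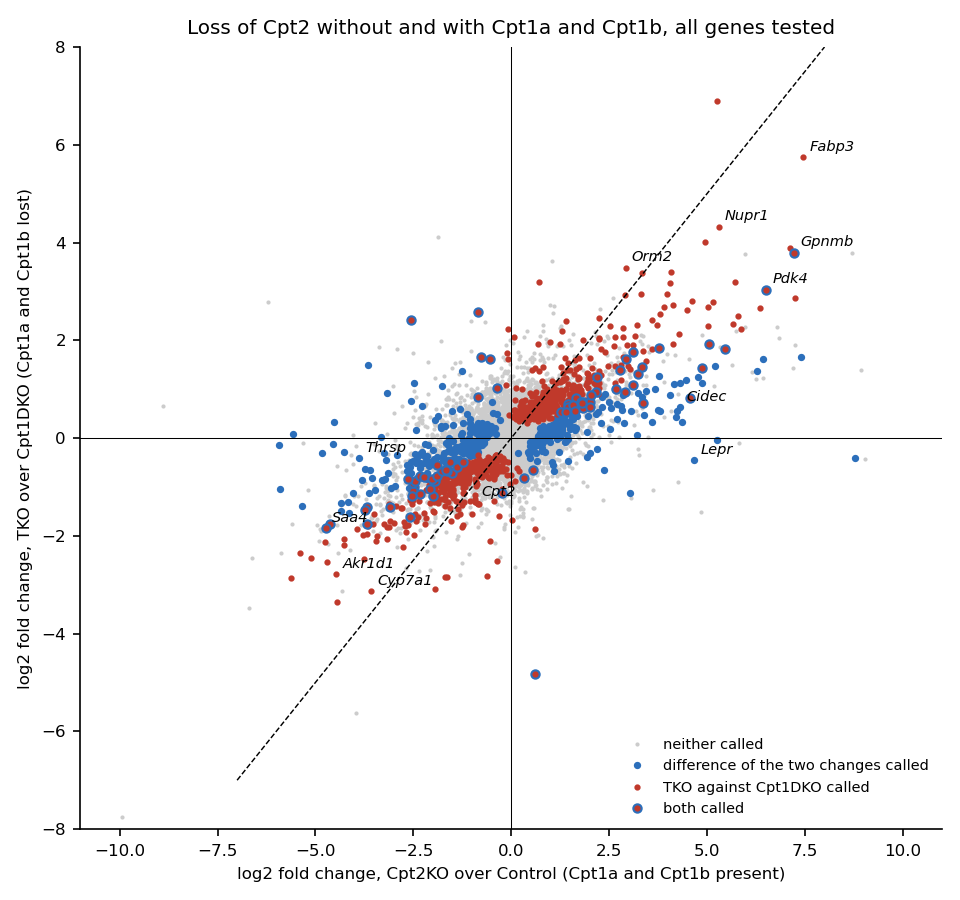
Log2 fold change of TKO over Cpt1DKO against that of Cpt2KO over Control for 15669 genes, with called genes coloured and the dashed line at equal change. Of the 729 genes called in TKO against Cpt1DKO, 637 were called with the same sign in Cpt2KO against Control, and the change was larger in Cpt2KO for 544 of the 729.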

How the data were processed

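Raw counts per gene were deposited by the authors with Ensembl identifiers and coordinates. Per the submitters' processing notes the build was GRCm39 (mm39) and HISAT2 was used. The counting tool, annotation and strand setting were not given in the sources used here. Overlapping, antisense or near-identical genes (haemoglobin, Orm, Serpina1, Serpina3, Acot, Gstm, Gsta, Saa, Cyp4a, Cyp2c and Mup families) may therefore share reads. RNA was taken from frozen liver, per the labels' protocols.

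Of 56748 genes, 31344 had a count above 0 and 15669 passed edgeR's filterByExpr (minimum count 10). All columns were matched to libraries by title (0 unmapped), and 0 rows named no gene. All 20 libraries entered 1 edgeR 4.0.16 quasi-likelihood model of group, with robust dispersions and TMM scaling, and contrasts were taken from it. Tests were two-sided and Benjamini-Hochberg adjusted over all genes tested, and calls were made at an adjusted p under 0.05. The SE of a log2 fold change is its size divided by the square root of F. On simulated counts for TKO against Cpt1DKO (15278 genes, 200 changed), 100% of 4-fold rises and 92% of 4-fold falls were called. Of 2-fold changes 56% were called in each direction, and there were 6 false calls. The simulation gave every gene the same coefficient of biological variation (0.233) and no outlying libraries, so these shares need not hold for the real counts.

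The 15 largest changes each way were named among called protein-coding genes averaging 5 CPM or more without overlap between the groups (511 genes met this), with up to 4 called members of each of 38 gene lists, 5 interactions each way and the targeted and fasting genes. Other list members, and Tsku and Adamtsl2, were chosen after their values were seen. Some genes that met these rules are not reported here. The comparison, the lists and their members were chosen with earlier results of these data known, so counts over lists are descriptions. Alternatives were another scaling, no filter, a replicate block, the compared groups alone, DESeq2 1.42.0 and leaving out each library. The authors also deposited log2 fold changes and adjusted p-values of their own comparisons, per the file headers, used only to compare calls. Their FPKM values were not used here.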

Additional observations from a re-analysis of the deposited data

Results flagged for a closer look

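In 202 groups of 4 libraries looked at, 10 had 1 library far from the other 3, where chance gives about 1 in 20. TKO replicate 2 was high for Lgals3 (23.1 CPM against 11.2 to 12.8 in the other TKO libraries), Cyp2c70 (25.2 against 4.71 to 7.09), Cyp3a13 (171 against 97.2 to 107), Plg (1310 against 605 to 672) and Slco1a4 (64.9 against 21.7 to 28.4). TKO replicate 3 was low for Kynu, at 59.2 CPM against 66.5 to 67.7. Cpt1DKO replicate 2 was high for Anxa2 (13.5 CPM against 7.74 to 8.48) and low for Igfbp2 (1200 against 1400 to 1430) and for the targeted gene Cpt2 (147 against 284 to 302). Cpt1DKO replicate 1 was high for Ppp1r3g, at 99.5 CPM against 9.58 to 23.0.

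For 27 of 101 named genes the change with loss of Cpt2 differed between TKO against Cpt1DKO and Cpt2KO against Control by the interaction test. Over all genes tested the share was 2.7%. The 5 largest interactions each way were named because they were called, so the 27 are a description and not a result about the named genes. Among lipid genes the interaction, as a difference of log2 fold changes, was -3.47 for Pdk4, -3.67 for Cidec, -3.27 for Fgf21, -2.63 for Acot1, -2.02 for Plin2, -1.23 for Pex11a and -1.06 for Slc22a5. It was 3.47 for Thrsp and 1.42 for Pecr. It was -5.76 for Tubb2b, -3.42 for Gpnmb, -0.96 for Actg1, -4.02 for Dusp8, -5.14 for Lepr and -1.21 for Igfbp2. For Adra2a it was -9.18, a fitted value that depends on the prior count because 3 of the 4 Control libraries were at 0. Glycogen-targeting subunits went in opposite directions, at -5.29 for Ppp1r3g and 3.96 for Ppp1r3c. Positive interactions of genes that fall with Cpt2 loss in Cpt2KO were 4.09 for Cyp2c70, 3.98 for Car3, 3.02 for Cyp2c54, 2.90 for Saa4, 1.92 for Abcb11, 1.68 for Haao, 1.36 for Mbl2, 0.98 for Serpinf2 and 0.97 for Trf. The interactions of Abcb11 and Car3 were called in 1 of 16 fits that left out 1 library, those of Haao and Serpinf2 in 2 and that of Trf in 3.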

How the results depend on the processing

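The call count for TKO against Cpt1DKO was 703 with DESeq2's size factors in edgeR, 554 without the filter, 877 with the 8 libraries alone, 1266 by DESeq2 and 272 at a log2 fold change of at least 1 in size, and it ran from 278 to 898 when single libraries were left out. For Cpt2KO against Control it ran from 4347 to 5183 on leaving out single libraries. The interaction count was 973 without the libraries of female pattern, 941 by DESeq2, and 178 to 585 on leaving out single libraries. Without the Cpt2KO library of female pattern alone it was 423, of which 206 were positive and 217 negative, against 222 and 201 with all libraries. Of 86 called named genes, 40 were called in all 8 fits that left out a TKO or Cpt1DKO library, and 16 of the 30 largest changes were. No filter ended 22 named calls, the 8 libraries alone 16, the replicate block 7 (Slc2a2, Saa4, Car5a, Tmsb10, Isg15, Sox9 and Tnfrsf10b) and DESeq2's size factors in edgeR 2 (Fst and Serpina3m). The causes were not tested. Directions turned only for uncalled genes. On leaving out single libraries Car3 ran from -0.66 to 0.80 (without Cpt1DKO replicate 3), Adra2a from -0.68 to 0.023 (without Cpt1DKO replicate 1) and Ppp1r3g from -0.65 (without TKO replicate 2) to 1.11 (without Cpt1DKO replicate 1), with 0.10 under the replicate block.

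The replicate numbers of the labels share no stated animal, litter or day. Deviations of same-numbered TKO and Cpt1DKO libraries correlated at -0.0158 to 0.0727, and 3 of 4 TKO libraries correlated best with their own number. Libraries of different number correlated at -0.0978 to 0.0912, a wider range, so these values cannot tell whether the numbers mark pairs. With the number as a replicate block, 722 genes were called for TKO against Cpt1DKO (628 shared), 5050 for Cpt2KO against Control and 334 for the interaction. Depth limits precision for genes near 0, such as Fabp3, whose Cpt1DKO libraries held 1 to 7 counts each.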
